A study of Mus musculus with 6 samples.

Results

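Open chromatin was examined at 8 genes of the cyclic GMP pathway that relaxes vascular smooth muscle: the soluble guanylate cyclase subunits Gucy1a1 and Gucy1b1, the natriuretic peptide receptors Npr1 and Npr3, the kinase Prkg1 and the phosphodiesterases Pde5a, Pde3a and Pde1c. Peaks were taken where they overlapped the gene body with 20 kb on each side, here called the gene window, and peaks of different libraries that shared at least 1 base were merged into 1 region. This gave 105 regions of the 85174 regions found in the genome, from 292 peaks. The data are ATAC-seq, in which the Tn5 transposase cuts open chromatin, on primary mouse vascular smooth muscle cells bought from a supplier and grown in culture. The first group holds 3 libraries of cells transfected with siRNA against Arid3a, a transcription factor that binds AT-rich DNA. They are labelled si-Arid3a#1, si-Arid3a#2 and si-Arid3a#3, and whether the numbers stand for different siRNAs or for replicates is not stated. The second group holds 3 libraries of cells given a negative control. Cells stayed in culture for 24 h after transfection, and 50000 cells went into each assay. Neither strain nor age is given, an angiotensin II treatment is described without the libraries that received it, and separate cultures are not stated for replicates. The spread behind each p-value may therefore be technical. In the siRNA group it also holds differences between siRNAs, if the 3 labels stand for different ones. Peak lists do not measure Arid3a RNA, so the knockdown was not checked here.

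As background, cyclic GMP in smooth muscle is made by 2 kinds of enzyme. Soluble guanylate cyclase is a dimer of an alpha and a beta chain (Gucy1a1 and Gucy1b1) that nitric oxide activates, while Npr1 is a membrane guanylate cyclase that is itself the receptor of atrial and brain natriuretic peptides. Npr3 binds the same peptides and clears them. Prkg1, the cyclic GMP-dependent protein kinase, lowers cytosolic calcium and raises myosin phosphatase activity, which relaxes the cell. Phosphodiesterases end the signal: Pde5a is specific for cyclic GMP, Pde3a degrades cyclic AMP and is inhibited by cyclic GMP, and Pde1c is activated by calcium and calmodulin and is linked to proliferating rather than resting smooth muscle.

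The libraries were shallow as estimated here, and 2 of them more so than the others. Lists held 50543, 51279 and 41629 peaks in siRNA libraries 1 to 3, against 51330, 33248 and 52091 in control libraries 1 to 3. Depth is not stated, and an estimate from the peak values gave totals from 0.950 to 2.00 M tags, with control 2 lowest (0.950 M) and siRNA 3 next (1.19 M). The median peak held 8 tags at its summit in these 2 libraries and 11 in the other 4. A missing peak in control 2 or siRNA 3 goes with this lower depth, and whether depth or less open chromatin lay behind it was not tested. Of the smooth muscle markers, 6 of 10 (Acta2, Tagln, Smtn, Tpm1, Tpm2 and Lmod1) had a peak within 1000 bases of an annotated gene end in 6 of 6 libraries, and Myh11 and Des in none. The same count was 0 of 6 for endothelial, 1 of 6 for leukocyte (Cd68), 0 of 4 for epithelial and 2 of 5 for fibroblast markers (Col1a1 and Col1a2), against 36.4% of 21883 protein-coding genes.

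The promoters differed in where open chromatin lay, so the 250 bases before the start site are shown for 6 of them. Promoter windows, from 250 bases before to 50 after a start site, came from RefSeq on GRCm38.p6, the assembly of mm10, and 7 of the 8 genes had 11 such windows. Gucy1a1 and Gucy1b1 are shown because no library had a peak there, and Npr1 because the peak lay beside the window. Npr3, the inner start of Prkg1 and Pde5a are shown because a peak reached them, in whole or in part, in at least 3 libraries. Capitals mark GGGCGG, the GC box bound by SP and KLF factors, on either strand.
Gucy1a1: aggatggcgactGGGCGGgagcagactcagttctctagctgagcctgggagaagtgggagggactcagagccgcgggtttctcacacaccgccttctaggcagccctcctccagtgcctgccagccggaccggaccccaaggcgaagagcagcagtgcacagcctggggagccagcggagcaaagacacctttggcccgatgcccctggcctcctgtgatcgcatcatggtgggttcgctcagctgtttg
Gucy1b1: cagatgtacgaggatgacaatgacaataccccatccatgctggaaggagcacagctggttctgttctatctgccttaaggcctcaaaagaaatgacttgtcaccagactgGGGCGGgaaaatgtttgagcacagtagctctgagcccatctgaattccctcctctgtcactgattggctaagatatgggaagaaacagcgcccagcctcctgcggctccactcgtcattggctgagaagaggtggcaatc
Npr1: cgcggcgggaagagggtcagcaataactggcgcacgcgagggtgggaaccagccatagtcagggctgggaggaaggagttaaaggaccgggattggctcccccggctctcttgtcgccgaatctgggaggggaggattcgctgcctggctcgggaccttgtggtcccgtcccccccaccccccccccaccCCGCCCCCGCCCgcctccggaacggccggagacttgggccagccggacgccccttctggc
Npr3: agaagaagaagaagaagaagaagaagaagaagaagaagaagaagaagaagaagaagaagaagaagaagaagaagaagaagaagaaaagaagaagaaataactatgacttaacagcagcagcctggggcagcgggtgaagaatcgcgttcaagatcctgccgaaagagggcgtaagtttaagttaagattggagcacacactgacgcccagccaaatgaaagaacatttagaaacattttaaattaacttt
Prkg1, inner start: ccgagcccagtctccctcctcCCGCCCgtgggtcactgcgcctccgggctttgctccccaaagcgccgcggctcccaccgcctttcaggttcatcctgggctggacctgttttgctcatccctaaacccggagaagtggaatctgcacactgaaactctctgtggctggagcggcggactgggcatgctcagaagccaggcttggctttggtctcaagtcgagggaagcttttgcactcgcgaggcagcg
Pde5a: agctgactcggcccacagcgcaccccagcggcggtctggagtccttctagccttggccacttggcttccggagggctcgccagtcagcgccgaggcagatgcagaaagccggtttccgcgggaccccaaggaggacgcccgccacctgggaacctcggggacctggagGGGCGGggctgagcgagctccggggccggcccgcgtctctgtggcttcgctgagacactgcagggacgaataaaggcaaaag
The stretches of Gucy1a1, Npr3 and the inner start of Prkg1 lie within the annotated span of their gene, and that of Npr1 overlaps its outer end, because the gene's span reaches beyond the start site used. On mm10, the positions are chr3:82145651-82145900, minus strand for Gucy1a1, chr3:82074712-82074961, minus strand for Gucy1b1 and chr3:90465867-90466116, minus strand for Npr1. They are chr15:11907372-11907621, minus strand for Npr3, chr19:31664371-31664620, minus strand for Prkg1 and chr3:122728908-122729157, plus strand for Pde5a.

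A peak reached the promoter window in 5 of 6 libraries at Npr3 and at the inner start of Prkg1, with control 2 the library without one in each case. At Pde5a it did so in 3 libraries, siRNA 1, control 1 and control 3. The outer start of Prkg1 had a peak in 2 (siRNA 1 and control 1), and 1 of the 3 Pde1c windows also in 2 (siRNA 3 and control 2). The 2 Gucy1a1 windows and those of Gucy1b1 and Npr1 had a peak in 0 of 6. No gene of the 7 had a promoter window with a peak in 6 of 6 libraries, against 23.3% of 27025 genes in the RefSeq table, and 2 of 7 had one in at least 5, against 28.8%.

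Base composition and open chromatin went together over the genome, and the 8 genes held exceptions in both directions. Over all promoter windows, those with a peak in 6 of 6 libraries had a median GC content of 62.0% and 22 CpG dinucleotides, and those with none 48.3% and 4. The Npr1 window, with no peak, held 69.7% GC and 26 CpG, but a region called in 5 libraries lay beside it. The 2 Gucy1a1 windows, also without a peak, held 62.3% GC each and 14 and 15 CpG. The Npr3 window, with a peak in 5 libraries, held 39.0% GC and 6 CpG, and begins with a long run of the triplet gaa visible in the printed sequence. The merged region that reached this window ends at 11907502, so the run lies outside it. The inner Prkg1 window held 62.3% GC and 20 CpG. Letters were searched on both strands. GGGCGG stood in 1 window each of Gucy1a1, Gucy1b1, Npr1 and Pde5a and in both of Prkg1, against 35.7% of all 32851 windows, and was in none of Npr3 and Pde1c. ATTAAA, the core of the motif given for ARID3A, occurred in the Npr3 window alone of the 11, across its start site and so past the printed stretch, against 13.9% of all windows. TGANTCA (AP-1) occurred in 1 Pde1c window and 7.81% of all. CATTCC (TEAD), TGACGTCA (the cyclic AMP response element) and the CArG box of serum response factor occurred in none of the 11, against 14.7%, 1.79% and 1.63% of all windows. These are matches of letters, not binding sites.

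The genes of soluble guanylate cyclase lay in a stretch without any peak. Gucy1a1 (chromosome 3, 82092427 to 82145946, mm10) and Gucy1b1 (chromosome 3, 82032004 to 82074711) are neighbours, and their windows held 0 regions, 0 peaks in each siRNA library and 0 in each control library. The peak-free stretch ran from 81983805 to 82308673, 325 kb that hold these 2 protein-coding genes and no other. The nearest region lay 48.2 kb from Gucy1b1 and 109 kb from Gucy1a1. The caller's peak numbers ran on without a break across the stretch in 6 of 6 lists, so no called peak is missing there. Among gaps between neighbouring regions on the autosomes the median was 10.2 kb, and 793 of 83370 (0.951%) were at least as long as this one. Of protein-coding genes with a window of similar size, within 1.5 times, 9.53% for Gucy1a1 and 10.5% for Gucy1b1 also had 0 regions. With 50 kb on each side, the window of Gucy1b1 held 2 regions and that of Gucy1a1 still 0. How well reads map to this stretch was not tested.

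Npr1 (chromosome 3, 90450591 to 90465928) had 5 regions in its window, and the 2 present in 6 of 6 libraries lay at the ends of its neighbours. That at 90433137 to 90433856, at the end of Ints3, an Integrator complex subunit, was the strongest of all regions present throughout. The authors' fold enrichment at its summit, scaled to that library's own local background, was 18.3, 15.1 and 13.6 in siRNA libraries 1 to 3 and 14.5, 12.0 and 18.4 in control libraries 1 to 3. Its summit held 44, 40 and 32 tags in the siRNA libraries and 32, 24 and 52 in the control libraries. The other, at 90475712 to 90476572, lay at the end of Ilf2, a gene for an RNA-binding protein, with a fold enrichment of 11.1, 9.62 and 7.32 in the siRNA libraries and 10.2, 4.71 and 12.3 in the control libraries. The groups overlapped at both, with control 2 lowest at each.

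The region closest to the start of Npr1 was weak. It lay 0.441 kb outside the annotated 5′ end of the gene (90466369 to 90466774) and was called in 3 of 3 siRNA and 2 of 3 control libraries, with 8, 5 and 6 tags in siRNA libraries 1 to 3, against 4 and 7 in control 1 and control 3. Its fold enrichment was 5.45 ± 1.01 (SD, n = 3) in the siRNA libraries, against 3.93 and 5.40 in control 1 and control 3. Control 2, the shallowest library, had no peak there. Inside the Npr1 gene there was 1 region, called in control 1 alone with 4 tags, and the remaining region, 3.67 kb past the 3′ end, was called in 4 libraries.

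Npr3 (chromosome 15, 11839896 to 11907837), the clearance receptor, was open at its promoter. The region at 11906532 to 11907502 held 15, 16 and 12 tags in siRNA libraries 1 to 3 and 15 and 16 in control 1 and control 3, with no peak in control 2. Its fold enrichment was 7.01, 6.02 and 5.97 in the siRNA libraries, against 6.87 and 6.72 in the control libraries that had it. The values were alike in the 5 libraries, with an SD of 0.487 around 6.52, and the summits lay within 108 bases of each other. A second region, 3.04 kb past the other end of the gene at 11835960 to 11836857, was present in 6 of 6 libraries. There the fold enrichment was 8.08, 11.5 and 8.10 in the siRNA libraries and 11.9, 5.32 and 6.56 in the control libraries, which overlap. The other 5 of the 7 Npr3 regions were called in 1 to 3 libraries each, and the 2 just behind the promoter were called in siRNA 3, control 1 and control 3 in the first case and in control 1 in the second.

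Prkg1 (chromosome 19, 30564487 to 31765268), the kinase, spans 1201 kb and held 48 of the 105 regions, 45 of them inside the gene. Peaks in its window numbered 25, 27 and 23 in siRNA libraries 1 to 3, against 24, 10 and 27 in control libraries 1 to 3. The low value was that of control 2, and the other 5 libraries lay between 23 and 27. Of the 48 regions, 7 were present in 6 of 6 libraries and 19 in 1. Windows of protein-coding genes of similar size (94 genes) had a median of 8.5 regions and a median of 1 present in 6 of 6, and 98.9% of them, Prkg1 included, had no more regions than Prkg1. Per 100 kb, the Prkg1 window held 3.87 regions. The median over all protein-coding genes was 5.47, which takes in windows of every length and does not compare windows of similar size. By the sum of absolute differences in peak numbers over the 6 libraries, the gene most like Prkg1 was Runx2, at 10 peaks in all, with 26, 29 and 24 peaks in the siRNA libraries and 26, 14 and 27 in the control libraries in a window of 359 kb.

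**Figure D1:**
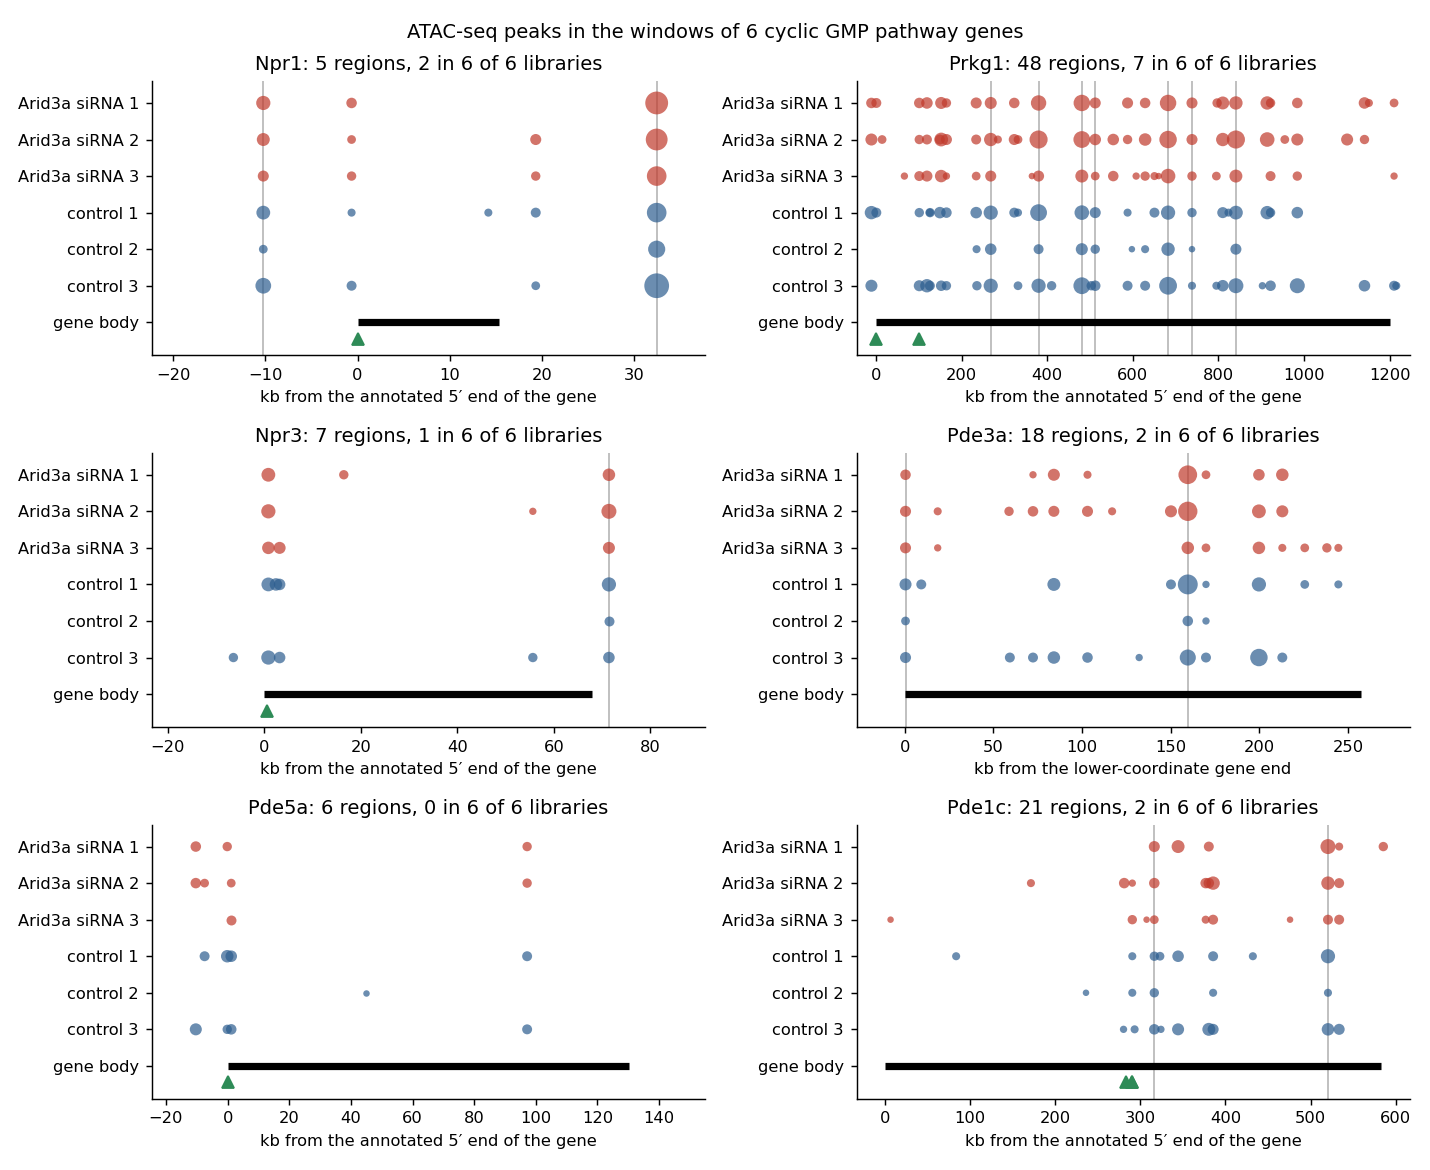
Peaks of each library in the windows of 6 genes, by distance in kb from the annotated 5′ end of the gene, or for Pde3a from its lower-coordinate end. Each row is a library, point area grows with the tags at the summit, vertical grey lines mark regions with a peak in 6 of 6 libraries, the black bar is the gene body and triangles are RefSeq start sites. The 7 grey lines in Prkg1 lie inside the gene away from its starts, and the row of control 2 is the emptiest in 5 of the 6 panels, tied with siRNA 3 at Pde5a.

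The Prkg1 regions present throughout lay deep inside the gene. The best supported was at 31082634 to 31083238, at the end of Cstf2t, a gene for an mRNA 3′ end processing factor that sits within Prkg1, with a fold enrichment of 13.0, 14.1 and 11.1 in siRNA libraries 1 to 3 and 10.3, 9.31 and 14.3 in control libraries 1 to 3. The next was at 31497206 to 31497824, 167 kb from the nearest start site, with 7.69, 9.28 and 7.22 in the siRNA libraries and 9.82, 7.86 and 10.0 in the control libraries. Both sets overlapped between the groups. The other 5 lay 279 to 740 kb from a start site. Of these, 31385441 to 31385873 had summits within 34 bases of each other in 6 libraries and a fold enrichment of 11.6 ± 3.85 in siRNA and 10.6 ± 4.28 in control libraries (SD, n = 3 each). The weakest, at 31026732 to 31027307, held 9, 9 and 6 tags in the siRNA libraries and 6, 2 and 4 in the control libraries.

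The 2 start sites of Prkg1, which give the isoforms of the kinase with different amino termini, differed in the number of libraries with a peak, 5 at the inner and 2 at the outer start. The region over the inner start, 31663950 to 31665100, held 8, 6 and 7 tags in siRNA libraries 1 to 3 and 6 and 9 in control 1 and control 3. Its fold enrichment was 5.89 ± 0.876 (SD, n = 3) in the siRNA libraries, against 4.82 and 6.92 in those 2 control libraries. The region over the outer start, 31764667 to 31765239, was called in siRNA 1 and control 1 only, with 7 tags in each. The other 4 libraries, siRNA 2 and control 3 among the deepest, had no peak there.

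Pde5a (chromosome 3, 122729158 to 122859374), the cyclic GMP-specific phosphodiesterase, had no region present in 6 of 6 libraries. Its window held 6 regions, near the median of 7 for windows of similar size. The region over its start, 122728815 to 122729276, held 6 tags in siRNA 1, against 12 and 6 in control 1 and control 3. A second one just inside the gene, 122729925 to 122730765, had 5 and 7 tags in siRNA 2 and siRNA 3, against 10 and 8 in control 1 and control 3. Taking both together, 3 of 3 siRNA and 2 of 3 control libraries had a peak within 1000 bases of that gene end, and control 2 again had none. Control 2 had 1 peak in the window, of 2 tags, inside the gene.

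Pde3a (chromosome 6, 141249269 to 141506862), whose product joins the cyclic GMP and cyclic AMP signals, was the only one of the 8 genes at whose end, within 1000 bases, each of the 6 libraries had a peak. The region at its lower-coordinate end, 141249283 to 141250234, had a fold enrichment of 5.30, 5.18 and 5.58 in siRNA libraries 1 to 3 and 6.20, 4.22 and 5.44 in control libraries 1 to 3. It rested on 8, 9 and 9 tags in the siRNA and 11, 5 and 9 in the control libraries, which overlap. A stronger region lay 160 kb into the gene, at 141408651 to 141409252, with 15.6, 15.8 and 8.55 in the siRNA libraries and 17.1, 6.33 and 11.4 in the control libraries. The 2 shallowest libraries had the lowest fold enrichments of their groups at this region, and summits lay within 36 bases. Another, at 141448893 to 141449242, was called in the 5 libraries other than control 2, with 10, 15 and 12 tags in siRNA and 16 and 25 in control 1 and control 3. All 18 Pde3a regions lay inside the gene.

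Pde1c (chromosome 6, 56069798 to 56652510), the calcium-activated phosphodiesterase, held 21 regions, of which 13 were called in 1 library. The 2 present throughout were at 56335877 to 56336396 and 56131773 to 56132271, 26.3 and 230 kb from the nearest start site. The first had a fold enrichment of 7.62, 6.40 and 4.80 in siRNA libraries 1 to 3 and 5.43, 5.99 and 6.64 in control libraries 1 to 3. The second had 12.7, 10.1 and 6.20 in the siRNA libraries and 11.4, 4.20 and 8.89 in the control libraries. Neither set separated the groups. The only promoter window of Pde1c with a peak had 6 tags in siRNA 3 and 4 in control 2 in the region that reached it (56361578 to 56362435), which was also called, outside the window, in siRNA 2 and control 1 with 3 and 4 tags.

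**Figure D2:**
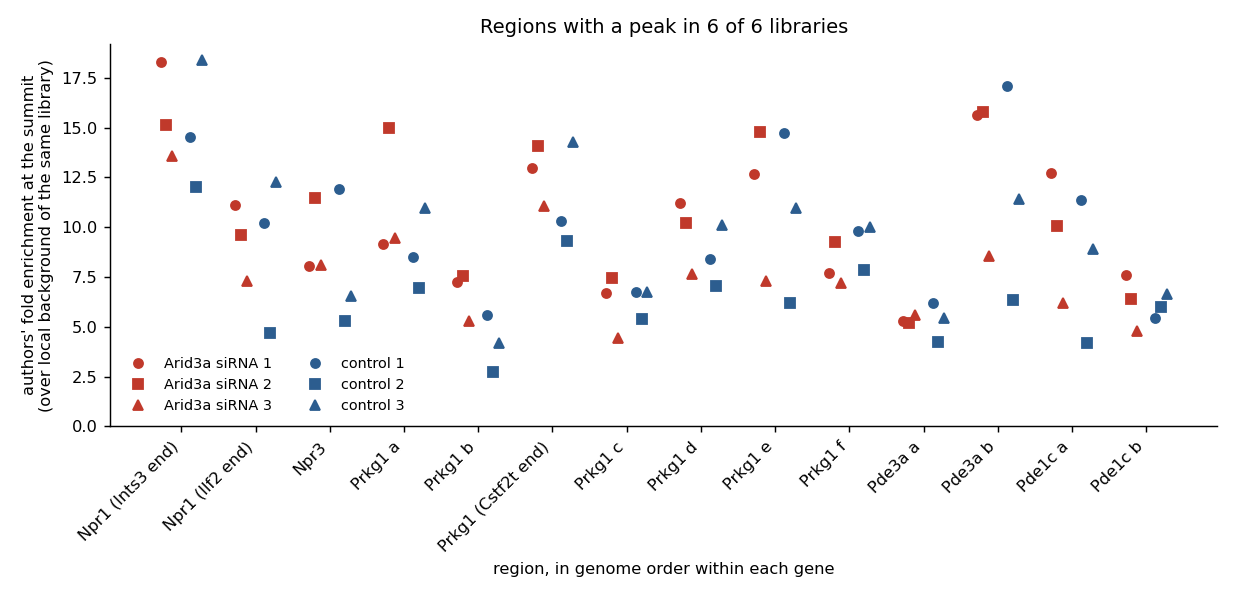
The authors' fold enrichment at the summit (linear axis from 0) for the 14 regions with a peak in 6 of 6 libraries, in genome order within each gene, with 3 Arid3a siRNA libraries in red left of 3 control libraries in blue. The siRNA and control points overlap in 14 of 14 regions, and control 2 is the lowest point in 11.

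No region of the 8 genes was specific to a group. Of 105 regions, 0 were present in 3 of 3 siRNA and 0 of 3 control libraries, against 0.432% of all regions, and 0 in the opposite case, against 0.277%, or 0.709% of all regions in either direction. A count of 0 among 105 allows a share of up to 2.86%, taken as 3 divided by 105. That limit treats the regions as independent, which neighbouring regions of the same libraries may not be. The count of 0 does not set these genes apart from the genome. At the 14 regions present in 6 of 6 libraries, the 3 siRNA and 3 control fold enrichments overlapped in 14. Over all regions present in 6 of 6 libraries, 4% had the 3 siRNA values above the 3 control values and 1.71% below. Control 2 gave the lowest fold enrichment in 11 of the 14 and siRNA 3 in 3. These values are scaled within each library, and no change of a single region was tested.

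Regions called in at least 2 more libraries of a group than of the other numbered 8 on the siRNA side and 1 on the control side, or 7.62% and 0.952% of the 105, against 4.71% and 3.72% of all regions. With 3 siRNA and 1 control library these were 31531299 to 31531715, 31613205 to 31613483 and 31646406 to 31646928 in Prkg1, 141462143 to 141462392 in Pde3a and 56118627 to 56119103 in Pde1c. Control 2 was among the libraries without a peak in each of the 5. The best supported was that at 31613205 in Prkg1, 51.0 kb from the inner start, with 11, 15 and 12 tags in siRNA libraries 1 to 3 and 8 in control 3. With 2 siRNA and no control library there were 1 region each in Prkg1, Pde3a and Pde1c, and on the control side 1 in Prkg1 (31639555 to 31639926), with 4 and 7 tags in control 1 and control 3. Without control 3, the last 4 of the 5 named regions would count as present in the siRNA libraries alone, beside 1.29% of all regions in that setting. Without siRNA 1 the 3 regions with 2 siRNA libraries would, beside 1.09% of all regions, and without control 1 the first of the 5 would, beside 1.32%. Without control 2 and siRNA 3, the 2 shallowest libraries, 0 of 94 regions were present in each siRNA library alone, beside 2.44% of all regions, and 2 in each control library alone, beside 2.70%, which is near the share over all regions. None of these 9 regions was tested, since 3 libraries against 3 cannot give an exact p below 0.1.

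Whether peak numbers separated the groups depended on the length of the lists. In the full lists the groups overlapped. The 8 windows together held 49, 58 and 49 peaks in siRNA libraries 1 to 3 and 55, 22 and 59 in control libraries 1 to 3. The mean was 52.0 ± 5.20 in siRNA libraries and 45.3 ± 20.3 in control libraries (SD, n = 3 each; exact two-sided permutation p = 0.9, adjusted p = 1). As a share of each library's list this was 0.109% ± 0.0109 in siRNA and 0.0955% ± 0.0256 in control libraries (SD, n = 3 each; exact two-sided permutation p = 0.6, adjusted p = 1). Covered length was 17.9 ± 0.632 kb in siRNA and 16.8 ± 6.97 kb in control libraries (SD, n = 3 each; exact two-sided permutation p = 0.9, adjusted p = 1). Each difference was below the control SD. Without control 2, the differences, siRNA minus control, had the opposite sign, at -5 peaks, -0.000953 percentage points and -2666 bases.

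With lists of equal length, the 33248 peaks of each library with the highest −log10 q, the siRNA libraries lay above the control libraries. The 8 windows then held 34, 35 and 36 peaks in siRNA libraries 1 to 3, against 31, 22 and 31 in control libraries 1 to 3, a difference of 7 peaks (exact two-sided permutation p = 0.1, the smallest that 3 against 3 can give; adjusted p = 0.275). The groups did not overlap, and control 1 and control 3, like control 2, lay below each siRNA library. Prkg1 had 20, 18 and 16 peaks in the siRNA libraries and 15, 10 and 13 in the control libraries, and Npr1 had 3, 3 and 4 in the siRNA libraries and 2 in each control library (exact two-sided permutation p = 0.1 and adjusted p = 0.275 for each). For these 2 of the 8 genes the siRNA libraries lay above without overlap, beside 0.905% of 21883 protein-coding gene windows, and for 0 of the 8 below, beside 0.891%. Among genes with a window of similar size the share above was 1.06% for Prkg1 (1 of 94, Prkg1 itself) and 0.707% for Npr1. The other genes overlapped, and covered length did too, at 13.1 ± 1.18 kb in siRNA and 11.4 ± 2.34 kb in control libraries (SD, n = 3 each; exact two-sided permutation p = 0.4). At Npr1, each control library kept only the peaks at the ends of Ints3 and Ilf2, which the siRNA libraries kept as well. The further Npr1 peaks held 8 tags in siRNA 1, 9 in siRNA 2 and 6 at each summit in siRNA 3. In the full lists siRNA libraries 1 to 3 had 3, 4 and 4 Npr1 peaks. Control libraries 1 to 3 had 5, 2 and 4. Equal lists drop the weakest peaks of the 5 longer lists and keep the list of control 2 whole, and this setting has no p below 0.1, so the difference did not pass a test. A fixed cut, at a −log10 q of 5 or more, also drops weak peaks, and there the groups overlapped. The differences were then 5.33 peaks for the 8 windows, 3.67 for Prkg1 and 1 for Npr1 (exact two-sided permutation p = 0.8, 0.6 and 0.4).

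Prkg1, which has the longest window, led the 8 genes in peak number in the full lists, with 25.0 ± 2.00 peaks in siRNA and 20.3 ± 9.07 in control libraries, before Pde3a with 9.33 ± 1.53 and 7.33 ± 3.79 and Pde1c with 8.0 ± 1.73 and 7.33 ± 2.08 (SD, n = 3 each). Npr1 had 3.67 ± 0.577 in siRNA and 3.67 ± 1.53 in control libraries, Npr3 3.33 ± 0.577 and 3.67 ± 2.31, and Pde5a 2.67 ± 1.53 and 3.00 ± 1.73 (SD, n = 3 each). Pde3a and Pde1c did not differ from each other beyond their spread, nor did Npr1, Npr3 and Pde5a among themselves. In the full lists the smallest unadjusted p of the 8 genes was 0.7 in the exact two-sided permutation test, for Prkg1, Pde3a and Pde1c, and each p adjusted over the 11 tests was 1. Per 100 kb of window, the number of regions was highest for Npr1 at 9.04, then 6.48 for Npr3, 6.05 for Pde3a, 3.87 for Prkg1, 3.52 for Pde5a and 3.37 for Pde1c. This order includes the flanks, which make up most of the short Npr1 window. With 0 kb on each side, Npr1 held 1 region, Npr3 5, Pde3a 18, Prkg1 45, Pde5a 4 and Pde1c 20.

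**Figure D3:**
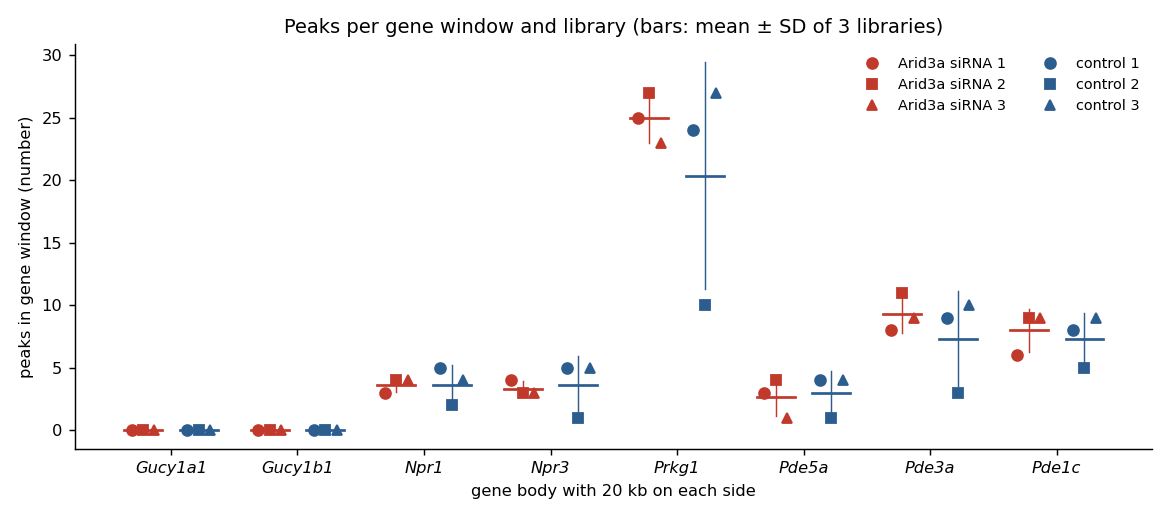
Number of peaks of the full lists in each gene window (gene body with 20 kb on each side) for 3 Arid3a siRNA libraries (red) and 3 control libraries (blue), with horizontal bars at the group mean and vertical lines of 1 SD to each side. Control 2, the blue square, lies lowest of the control libraries in the 6 windows that held peaks, and the 2 guanylate cyclase genes are at 0 in 6 libraries.

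Fewer of these regions were called in every library than in the genome as a whole. Of the 105, 14 (13.3%) were present in 6 of 6 libraries, against 24.4% of all regions, and 43 (41.0%) in 1 library, against 33.5%. Of those 14, 11 lay inside the gene whose window held them, the Cstf2t region among them, 2 lay outside Npr1 at the ends of Ints3 and Ilf2, and 1 lay past the end of Npr3. Prkg1, Pde1c and Pde3a, which have long windows, held 48, 21 and 18 of the 105, with 7, 2 and 2 in 6 of 6 libraries. Gene windows of similar size had medians of 8.5, 13 and 10 regions, and of 1, 2 and 2 in 6 of 6. Among the shorter windows, Npr1 had 2 of 5 in 6 of 6 and Pde5a 0 of 6. In the 4 deepest libraries together, 25 (23.8%) of the 105 were present in each, against 36.4% of all regions. Of the 9 regions called in 5 libraries, 6 lacked a peak in control 2 and 0 in siRNA 3. The median peak of the 8 windows held 9, 9 and 6 tags in siRNA libraries 1 to 3 and 7, 5 and 8 in control libraries 1 to 3, and the median over all peaks of each library was higher, at 11, 11 and 8 and at 11, 8 and 11 tags. The parts of depth and of window length in the difference from the genome were not tested.

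**Figure D4:**
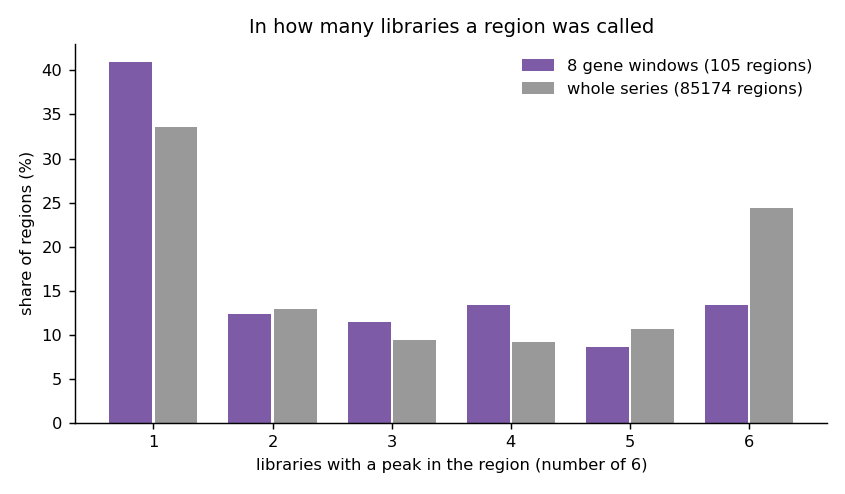
Share of regions in percent (vertical axis from 0) by the number of libraries, of 6, that had a peak in them, for the 105 regions of the 8 gene windows beside the 85174 regions of the whole series. The 8 windows have more regions called in 1 library (41.0% beside 33.5%) and fewer called in 6 (13.3% beside 24.4%).

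Further genes of the pathway were described by the peaks at their gene ends. Of 26 further genes, 8 (30.8%) were marked by such a peak in each of the 6 libraries and 10 (38.5%) in none, against 36.4% and 41.4% of all protein-coding genes. Of the 8 genes themselves the counts were 1 (12.5%) and 3 (37.5%), the 3 being Gucy1a1, Gucy1b1 and Pde1c. The 8 further genes included the nitric oxide synthase genes Nos2 and Nos3, the brain natriuretic peptide gene Nppb and the alternative alpha subunit gene Gucy1a2. The others were the calcium release channel gene Itpr1, the myosin phosphatase targeting subunit gene Ppp1r12a, the phosphodiesterase gene Pde1b and the phosphodiesterase 6 subunit gene Pde6d. A gene-end peak may belong to a neighbour, since ends were taken without strand. Gucy1a2 had 3 regions in its window, 1 of them in 6 of 6 libraries, where Gucy1a1 and Gucy1b1 had none. Among the 258 regions of these windows 0 were found in 3 of 3 siRNA and no control library, beside 0.432% of all regions, and 1 (0.388%) was found in 3 of 3 control and no siRNA library, beside 0.277%, which is near the share over all regions. It lay beyond the gene body of Kcnma1, the large-conductance calcium-activated potassium channel (chromosome 14, 23276055 to 23276422), with 5, 3 and 3 tags in control libraries 1 to 3 and a fold enrichment of 4.03 ± 0.941 (SD, n = 3).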

How the data were processed

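Per the submitters' processing notes, the authors used Bowtie2, Picard and MACS2 on build mm10. No source used here gives versions, parameters, duplicate handling or any Tn5 shift. The deposited files are 1 peak list per library. They hold the authors' fold enrichment per peak summit, a ratio over local background, with −log10 p and −log10 q. The deposited score is the −log10 q times 10.

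From the lists, Python 3.11.15 with pandas 2.3.3 and SciPy 1.17.1 merged peaks, gave positions from 1, and recovered summit tags, whole numbers up to 600 that match fold and −log10 p under a Poisson model within 0.001 for at least 99.996% of peaks per library. Depth estimates assume MACS2's default mouse genome size of 1870 Mb. They also take each library's shortest peak as the length of a tag and its most frequent background value as that of the genome. The merging, calling and tag steps were tested on simulated data.

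Gene positions came from a RefSeq table of GRCm38.p6 without strand. Library numbers were compared by exact two-sided permutation over the 20 relabellings, smallest p 0.1, with Benjamini-Hochberg adjustment over 11 tests. Alternatives were a stricter q, equal lists, other flanks, 50% coverage, merging within 100 bases, libraries left out and pairing. The genes and lists were chosen with earlier results of these data known. Among the regions, the text names those at gene ends, group-specific ones, and per gene the 2 present in 6 of 6 libraries with the highest value of their smallest −log10 q. Regions called in 5 libraries or unevenly, and further ones in Prkg1, were named after their values were seen.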

Additional observations from a re-analysis of the deposited data

How the results depend on the processing

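Of 171 recomputed values, 12 counts moved further than 1.5 times, 18 differences changed sign and 141 did neither. The 141 overstate stability, since a difference of 0 in the full lists could not change sign. Gucy1a1, Gucy1b1 and Npr1 had such a difference, and Npr1 ran from 1.33 with equal lists to -1 without the 2 shallowest libraries. Paired differences, also counted, were the same by construction. No setting could pass a threshold, since exact p-values here cannot go below 0.1. That value was reached with lists of equal length, for all peaks (difference 7), their share (0.0211 percentage points), Prkg1 (5.33) and Npr1 (1.33), where the full lists gave p from 0.6 to 1. Without the 2 shallowest libraries the differences, siRNA minus control, were -3.5 peaks, -0.00518 percentage points, -2582 bases and, for Pde1c, -1 peak. Regions in every library then numbered 25 (26.6%, beside 40.2% of all regions) and control-only regions 2 (beside 2.70% of all regions). Npr3 differed by 0.333 peaks at a −log10 q of 5 or more and, with lists of equal length, by 0.667, where Pde1c differed by -0.667. Regions in 6 of 6 libraries numbered 7 (10.1%) at a −log10 q of 5 or more, beside 25.2% of all regions. They numbered 5 (4.76%) where peaks had to cover 50% of the region, beside 13.7% of all regions. There was 1 knockdown-only region, in Prkg1, under each of 4 settings: the stricter q, equal lists, 50 kb flanks and 50% coverage. The windows then held 69, 64, 121 and 105 regions, beside knockdown-only shares of 0.314%, 0.497%, 0.432% and 0.504% over all regions. A count of 1 is the smallest above 0. The region lay at 31136269, 31613205, 31798614 and 31531299 in turn, so it was not the same one. The cause was not tested. Leaving out 1 library gave knockdown-only regions from 0 to 4 (most without control 3, beside 1.29% of all regions). Control-only regions then ran from 0 to 1 (1 without control 2, beside 1.90%). All-library regions ran from 14 to 20, or 14.3% to 19.8%, beside 26.2% to 31.5% of all regions. Differences ran from -5 to 13.5 peaks, -0.000953 to 0.0226 percentage points and -2666 to 4166 bases for the 8 windows, -1.67 to 0.333 peaks for Npr3, -0.5 to 8 peaks for Prkg1, -1.33 to 0.5 peaks for Pde5a, -0.167 to 3.33 peaks for Pde3a, -0.5 to 1.67 peaks for Pde1c.

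Paired by the number in the titles (replicate block), the differences were the same by construction, 6.67 peaks with an exact sign-flip p of 1 and 0.0137 percentage points with 0.75, where 0.25 is the smallest possible. No pairing by number showed in the values: correlations of deviations over 20742 regions were 0.0414, -0.0542 and -0.0521. Whether samples of the same number were prepared together cannot be told from these correlations. Depth limits which weak peaks a list can hold.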
